A study of Mus musculus with 6 samples.

Results

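The tumour necrosis factor (TNF) ligand and receptor superfamily was followed in RNA of whole, uninjured mouse digit tips. Its members were taken by gene symbol: all rows of the deposited table with a single symbol of the Tnfsf or Tnfrsf series, together with Tnf, Lta, Ltb, Fas and Fasl, and without Tnfrsf19 and Tnfrsf11a. This gave 33 genes of 20806 tested, 14 of them ligands and 19 receptors, each read by 1 transcript cluster, a group of probes for the same gene. The comparison rests on 6 arrays. The 3 controls are labelled wildtype, and the other 3 carry the label K14-CreER;Ctnnb1 cKO, a conditional deletion of the beta-catenin gene; all animals were 8 weeks old.

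K14-CreER is a Cre recombinase that needs an inducer and is driven by the keratin 14 promoter, which is active in basal epithelium. The deletion is therefore directed at epidermis and nail epithelium, while the RNA comes from every tissue of the tip, including bone, connective tissue, vessels and immune cells. Neither the inducer nor the alleles of the control animals are given in the sources used here. Values are log2 signals set by the authors to the median of the controls, so the middle control reads 0 for every transcript cluster and thus for every member. Genes averaged over several clusters can depart from this. They carry no absolute level, and the tissue could not be checked by the presence of its markers. In whole tissue, fewer cells of a type and less RNA per cell cannot be told apart.

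TNF ligands are mostly made as membrane proteins that assemble as trimers, and many are also shed in soluble form. Their receptors either carry a death domain, which can lead to caspase activation, or recruit TRAF adaptors, which lead to NF-kB and MAP kinase signalling. Some receptors lack a working intracellular part and act as decoys. In skin and bone the family is known for inflammation (TNF), for the making of osteoclasts (Tnfsf11, called RANKL, against its decoy Tnfrsf11b, called osteoprotegerin), and for the exchange of signals between lymphocytes and antigen-presenting cells.

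The cKO replicate 1 array stood apart in sex-linked genes: Ddx3y, Eif2s3y and Uty, all on the Y chromosome, read 8.08, 7.62 and 6.84 there, and -0.22 to 0.84 on the other 5 arrays, while Xist read -5.84 there and -0.39 to 0.08 on the others. The labels give no sex. Both called members are also given without this array. Control replicate 3 had the lowest value of all 6 arrays for Tnfrsf1b, Tnfsf10 and Tnfrsf10b. The targeted gene, Ctnnb1, read 0, -0.19 and 0.59 on control replicates 1, 2 and 3 and -1.10, -0.87 and -1.06 on the cKO replicates. It was lower on all 3 cKO arrays, at 45.3% of the control (limma adjusted p 0.0284).

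Of the 33 members, limma called 1 higher (Tnfrsf1b) and 1 lower (Tnfrsf13c) at an adjusted p of 0.05 over all genes. That is 6.06% of members, against 1.94% of all genes called (1.24% higher and 0.697% lower). The other 31 were not called, and 29 members lay within 1.5-fold of the control. The 4 beyond it are 12.1% of members, against 9.93% of all genes. An unadjusted limma p under 0.05 was found for 4 of the 33 members and for 12.5% of all genes. The median log2 difference, cKO minus control, was 0.11 over the members and -0.0045 over all genes. The cKO mean lay above the control mean in 21 members, or 63.6%, against 49.6% of all genes. Groups did not overlap in 5 members, 3 higher and 2 lower, which is 15.2% of members against 19.4% of all genes (10.2% higher and 9.24% lower).

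**Figure D1:**
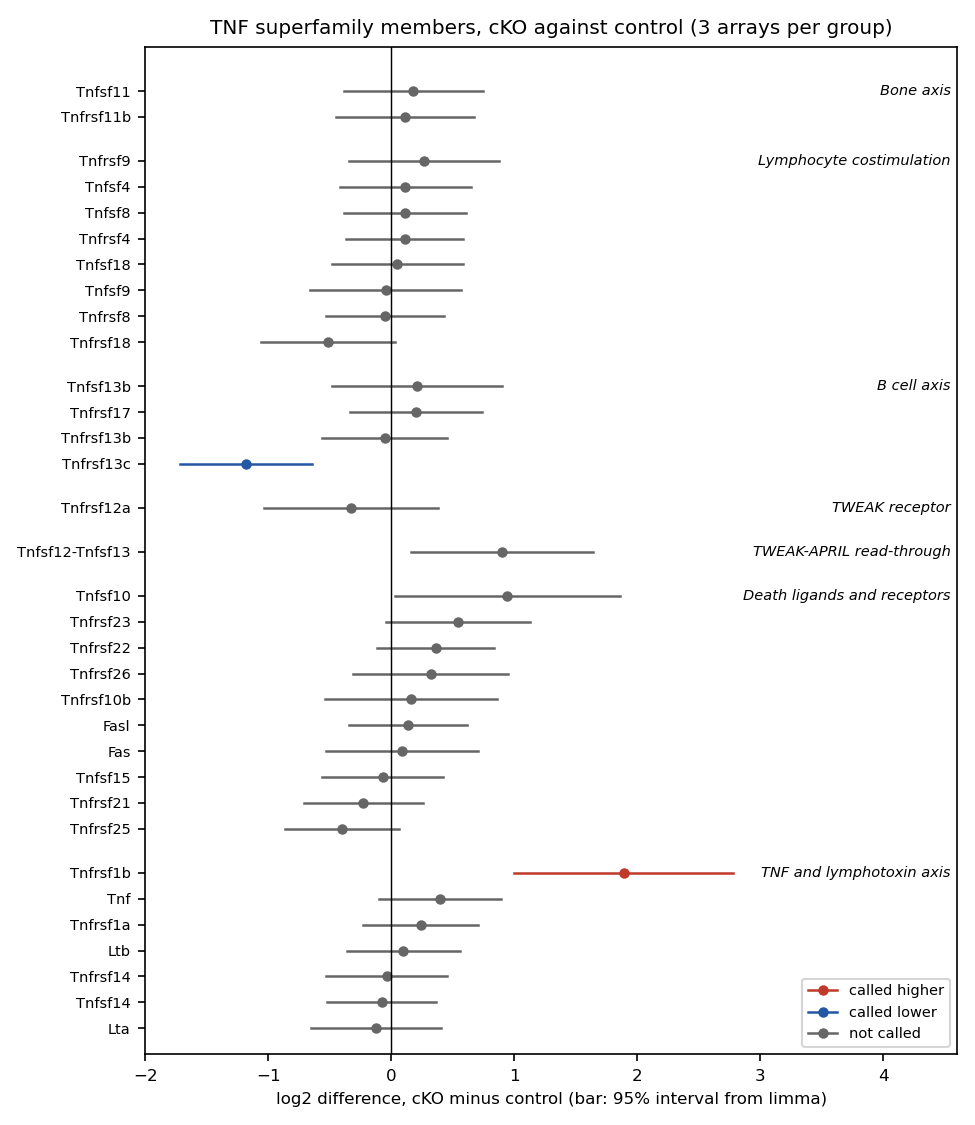
Log2 difference (cKO minus control, 3 arrays per group) of each of the 33 members, grouped by role; points are limma estimates, bars their 95% intervals, and colour marks the call. Tnfrsf1b (1.89) and Tnfrsf13c (-1.18) are the 2 called members, and the other points lie between -0.51 and 0.94.

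Tnfrsf1b and Tnfrsf13c are the members the results turn on, so their upstream sequences are shown. Each is the 250 bases before the gene's start in RefSeq, build GRCm38.p6 (the array's own annotation uses build mm9), read 5′ to 3′ on the gene's strand. Capitals mark GC boxes, GGGCGG on either strand.
Tnfrsf1b, chr4:145246871-145247120, minus strand: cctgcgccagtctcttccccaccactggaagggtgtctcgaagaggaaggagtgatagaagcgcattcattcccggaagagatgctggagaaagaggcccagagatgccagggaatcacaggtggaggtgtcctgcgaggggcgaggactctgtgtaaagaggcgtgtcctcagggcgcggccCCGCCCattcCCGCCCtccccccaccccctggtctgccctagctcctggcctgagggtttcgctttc
Tnfrsf13c, chr15:82224381-82224630, minus strand: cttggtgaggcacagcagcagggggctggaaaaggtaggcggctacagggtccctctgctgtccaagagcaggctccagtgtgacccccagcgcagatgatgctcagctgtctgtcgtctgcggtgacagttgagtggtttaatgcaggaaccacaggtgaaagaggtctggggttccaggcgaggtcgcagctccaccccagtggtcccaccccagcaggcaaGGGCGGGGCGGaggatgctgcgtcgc
Both windows hold 2 GC boxes, those of Tnfrsf1b starting 67 and 57 bases before the start on the opposite strand, those of Tnfrsf13c 26 and 21 bases before it on the gene's strand and sharing 1 base. A GC box was present in 32.7% of 32841 mouse windows of the same length. Of the 33 members, 26 had a window, and 11 of these held a GC box. Members are counted by gene, with a match in any of its windows, while the shares are by window, so these are unlike units. The core letters bound by TCF/LEF factors, the DNA-binding partners of beta-catenin (CTTTGAA or CTTTGAT, either strand), were found in neither of these windows, and in those of Fas and Tnfrsf9, against 7.48% of all windows. The NF-kB consensus was in neither either, and in those of Ltb, Tnfrsf8 and Tnfrsf9, against 3.9% of all windows. The TATA box core, TATAAA, was in neither window, and in those of 6 members, against 12.4% of all windows. A match is only a string of letters, and the arrays do not measure binding.

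Tnfrsf1b encodes TNF receptor 2, which lacks a death domain, is found mainly on leukocytes and endothelial cells and responds best to membrane-bound TNF. It read 0.60, 0 and -1.40 on control replicates 1, 2 and 3 and 1.59, 1.21 and 2.07 on the cKO replicates. All 3 cKO arrays lay above all 3 controls, and the control group was the more widely spread of the pair (SD 1.03 against 0.43). Tnfrsf1b rose by 1.89 ± 0.41 (limma SE, n = 3 per group), which is 3.71-fold, with a limma adjusted p of 0.0333. Its cluster covers positions 144802271 to 144836773 of mm9 on the minus strand. Leaving out control replicate 3 gave 1.32 with an adjusted p of 0.0605. Leaving out cKO replicate 1 gave 1.91 (0.0567), and cKO replicate 3 gave 1.67 (0.249). With any of the other 3 arrays left out it was called, and the adjusted p was 0.114 with robust variances. The authors' deposited table of fold changes lists it at 3.71 and their significance list does not hold it.

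Markers of leukocytes and of endothelium, the cells named above, were read on the same arrays. Of 13 macrophage and monocyte markers 2 rose, Ccr2 by 1.63 and Lyz2 by 1.27, and 11 of the 13 had a higher mean in the cKO. The median of that list was between -0.08 and 0.24 on the control arrays and between 0.53 and 0.90 on the cKO arrays. All 8 endothelial markers had a higher mean in the cKO. Their list median was between -0.32 and 0.0037 on the controls and 0.32 to 0.75 on the cKO arrays. Limma called none of them, and 5 had an unadjusted p under 0.05, against 12.5% of all genes. The median difference was 0.56 for the macrophage list and 0.65 for the endothelial list. In other leukocyte lists it was 0.32 (T lymphocyte), 0.23 (regulatory T), 0.19 (neutrophil) and 0.16 (natural killer and cytotoxic). It was 0.14 for Langerhans and dendritic cells, 0.08 for B lymphocytes and -0.03 for mast cells. Outside these cells it was 1.24 for osteoblasts and osteocytes, 0.60 for fibroblasts, 0.06 for osteoclasts and 0.01 for keratinocytes. The nail and hair matrix list had -0.46 and the sebaceous gland list -2.27. The part of any of these cells in the Tnfrsf1b difference was not tested.

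The ubiquitous partner receptor, Tnfrsf1a, which has a death domain and binds soluble TNF, read -0.04, 0.09 and 0 on the controls and 0.27, 0.51 and -0.0008 on the cKO arrays. The groups overlapped, and the difference was 0.24 ± 0.22 (limma adjusted p 0.706, 95% interval -0.23 to 0.71). Tnf itself, the main inflammatory ligand of both receptors, read 0.39, -0.30 and 0 on the controls and 0.45, 0.33 and 0.49 on the cKO arrays. Its cKO mean was higher by 0.39 ± 0.23, but cKO replicate 2 lay below control replicate 1, and Tnf was not called (adjusted p 0.536, interval -0.10 to 0.89). The interval of Tnfrsf1b was 1.0 to 2.78.

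Lta and Ltb, whose products form the lymphotoxins that organise lymphoid tissue, lie directly beside Tnf in the genome. Lta differed by -0.13 ± 0.24, reading 0.48, 0 and -0.27 on the controls and 0.0029, -0.30 and 0.14 on the cKO arrays. Ltb differed by 0.10 ± 0.21, reading 0, -0.05 and 0.35 on the controls and 0.18, 0.30 and 0.12 on the cKO arrays. In both genes the cKO values lay inside the range of the controls, except for Lta on cKO replicate 2, just below it. The ligand Tnfsf14 (LIGHT) and its receptor Tnfrsf14 differed by -0.08 and -0.04, with adjusted p of 0.913 and 0.965.

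**Figure D2:**
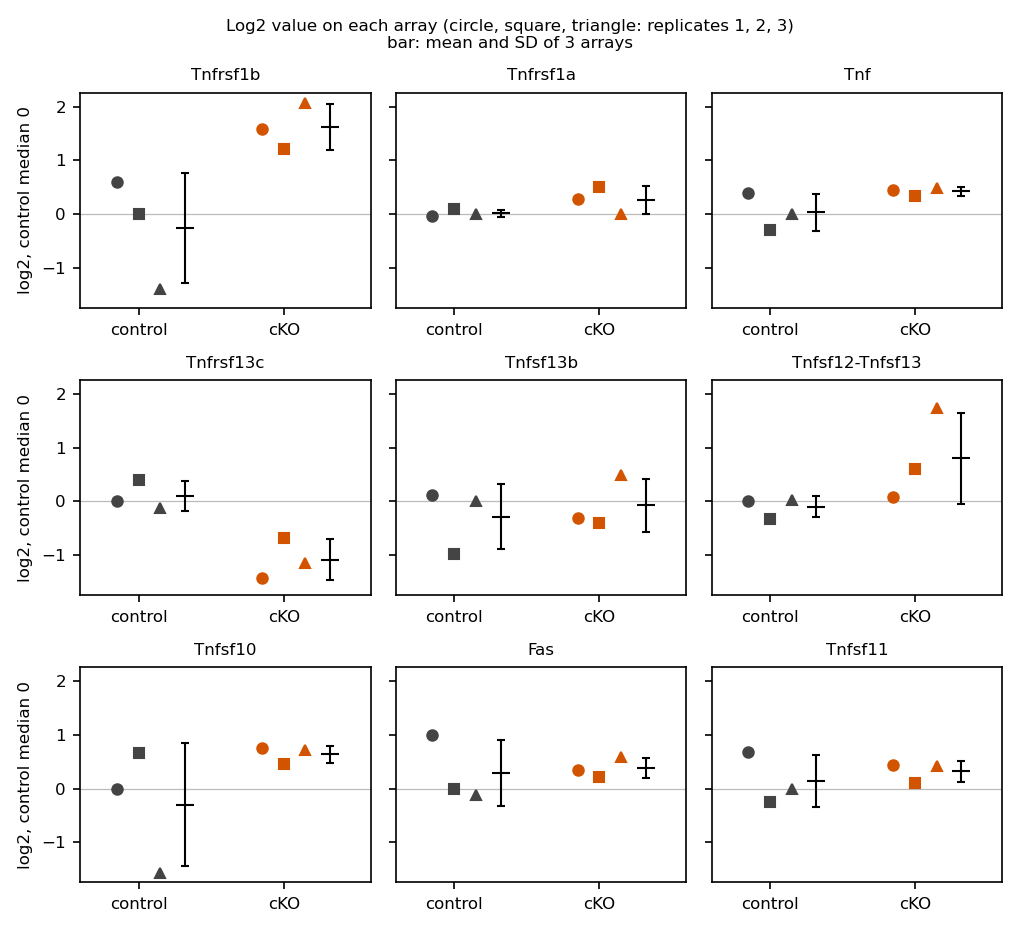
Log2 value on each of the 6 arrays (control median 0) for 9 members, with symbols for replicates 1 to 3 and bars for the mean and SD of 3 arrays. The groups are apart in Tnfrsf1b, Tnfrsf13c and, narrowly, Tnfsf12-Tnfsf13, and overlap in the other panels.

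Tnfrsf13c encodes the BAFF receptor, a survival receptor of mature B lymphocytes. It read 0, 0.40 and -0.12 on the controls and -1.43, -0.68 and -1.14 on the cKO arrays. All 3 cKO arrays lay below all 3 controls, and the lowest value was that of cKO replicate 1. Tnfrsf13c fell by 1.18 ± 0.25 to 44.1% of the control (limma adjusted p 0.028). Its cluster covers positions 82052173 to 82054790 of mm9 on the minus strand. With control replicate 1 or 2 left out the adjusted p was 0.0924 or 0.0914. Leaving out cKO replicate 1 gave -1.01 (0.118), and cKO replicate 3 gave -1.15 (0.153). It was called with either remaining array left out. The authors' deposited fold changes give it as -2.27, and their significance list holds it with a corrected p of 0.038.

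The rest of the BAFF and APRIL system did not pass the test. Its ligand Tnfsf13b (BAFF) read 0.12, -0.97 and 0 on the controls and -0.30, -0.41 and 0.48 on the cKO arrays, a difference of 0.21 ± 0.32 with overlapping groups (adjusted p 0.844). The sister receptors Tnfrsf13b (TACI) and Tnfrsf17 (BCMA) differed by -0.05 ± 0.23 and 0.20 ± 0.25. Of B lymphocyte markers on the same arrays, none of 5 (Blk, Cd22, Cd79a, Cd79b and Ms4a1) was called by limma, 0 of them at an unadjusted p under 0.05, and 3 had a higher mean in the cKO. Their differences lay between -0.20 and 0.20. The list median was between 0 and 0.27 on the controls and between -0.16 and 0.23 on the cKO arrays, with the lowest value on cKO replicate 1.

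**Figure D3:**
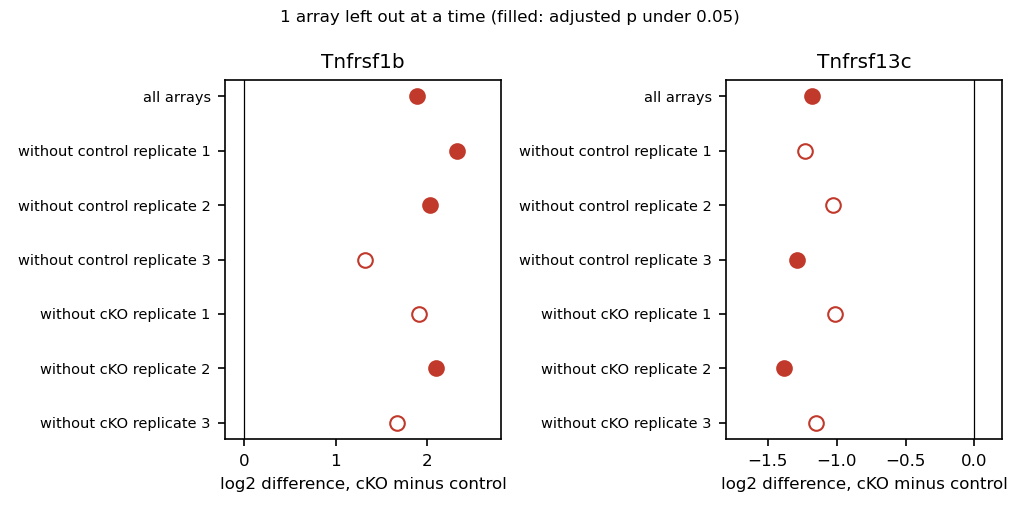
Log2 difference (cKO minus control) of Tnfrsf1b and Tnfrsf13c with all 6 arrays and with each array left out; filled points have a limma adjusted p under 0.05. Tnfrsf1b stayed between 1.32 and 2.32 and passed in 3 of the 6 settings, and Tnfrsf13c stayed between -1.38 and -1.01 and passed in 2.

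The row named Tnfsf12-Tnfsf13 stands for a read-through transcript over Tnfsf12, which encodes TWEAK, and Tnfsf13, which encodes APRIL. Its entries name all 3 genes, so TWEAK, APRIL and the fusion cannot be told apart. It read 0, -0.32 and 0.03 on the controls and 0.07, 0.61 and 1.73 on the cKO arrays. The groups did not overlap, but cKO replicate 1 was only just above the highest control and replicate 3 far above it. The difference was 0.90 ± 0.34, with a limma adjusted p of 0.282, and it was 0.44 without cKO replicate 3. The TWEAK receptor, Tnfrsf12a (Fn14), which injury is known to induce in many tissues, read -0.72, 0.0043 and 0 on the controls and -0.40, 0.01 and -1.32 on the cKO arrays. Its groups overlapped, with a difference of -0.33 ± 0.33.

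Among ligands and receptors of cell death, limma called none of the 10 members. An unadjusted p under 0.05 was found for 1 of them, against 12.5% of all genes. Tnfsf10, which encodes TRAIL, had the largest difference, 0.94 ± 0.42 (adjusted p 0.383). It read 0, 0.66 and -1.57 on the controls and 0.75, 0.46 and 0.71 on the cKO arrays, so that the cKO arrays were close together and the controls widely spread. Leaving out control replicate 3 lowered the difference to 0.31, and leaving out control replicate 2 raised it to 1.42, with an adjusted p of 0.0498. The mouse death receptor for TRAIL, Tnfrsf10b, read 0.23, 0 and -1.16 on the controls and 0.06, -0.08 and -0.43 on the cKO arrays. Its difference of 0.16 ± 0.32 became -0.26 without control replicate 3.

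Tnfrsf22, Tnfrsf23 and Tnfrsf26 lie side by side in the mouse genome and are close relatives, of which Tnfrsf22 and Tnfrsf23 encode decoy receptors for TRAIL; probes of such relatives can share signal. Tnfrsf22 read 0.09, -0.07 and 0 on the controls and 0.25, 0.18 and 0.68 on the cKO arrays. Tnfrsf23 read -0.32, 0.57 and 0 on the controls and 0.45, 1.03 and 0.40 on the cKO arrays. All 3 neighbours had a higher mean in the cKO, by 0.36, 0.54 and 0.32, only Tnfrsf22 had groups that did not overlap, and none was called (adjusted p 0.448 to 0.711).

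Fas, a death receptor of many cell types, read 0.99, 0 and -0.12 on the controls and 0.35, 0.21 and 0.58 on the cKO arrays, with the highest value on a control. Its difference was 0.09 ± 0.29. Its ligand Fasl, made by cytotoxic lymphocytes, read 0, -0.14 and 0.06 on the controls and -0.08, -0.04 and 0.45 on the cKO arrays, a difference of 0.14 ± 0.22. Tnfrsf25, a death domain receptor of T cells, read 0.30, 0 and -0.03 on the controls and -0.18, -0.26 and -0.49 on the cKO arrays. All its cKO values lay below the controls, yet the difference of -0.40 ± 0.21 was not called (adjusted p 0.486). Its ligand Tnfsf15 differed by -0.07, and Tnfrsf21, another death domain receptor, by -0.23.

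The bone pair was also not called. Tnfsf11 (RANKL), the ligand that drives osteoclast formation, read 0.67, -0.26 and 0 on the controls and 0.44, 0.09 and 0.42 on the cKO arrays, a difference of 0.18 ± 0.26 (95% interval -0.38 to 0.74). Tnfrsf11b (osteoprotegerin), which binds RANKL and blocks it, read 0.08, -0.59 and 0 on the controls and 0.11, -0.48 and 0.20 on the cKO arrays, a difference of 0.11 ± 0.26 (interval -0.45 to 0.68). In both genes the groups overlapped and replicate 2 was the lowest of its group. On the log2 scale, ligand minus decoy within each array was 0.59, 0.33 and 0 for the controls, against 0.33, 0.58 and 0.23 for the cKO arrays. Each gene is set to its own control median, so only the difference of this measure between groups has meaning. The means were 0.31 ± 0.30 and 0.38 ± 0.18 (SD, n = 3 each), a difference of 0.07 with p = 1 in a two-sided exact permutation test, where 3 against 3 cannot go below 0.10. On these arrays the osteoclast markers Atp6v0d2 and Ctsk rose, by 2.85 and 2.22, as 2 called of 9. Of these 9, 5 had a higher mean in the cKO, and the median difference was 0.06, with Calcr at -0.41 and Itgb3 at -0.12. Acp5 and Dcstamp were at 0.78 and 0.525 and were not called. On the same arrays 4 of 10 osteoblast and osteocyte markers rose (Alpl, Ibsp, Ifitm5 and Sp7). Of these 10, 9 had a higher mean in the cKO, and the median difference was 1.24, with Mepe at -0.44. Limma called 1.24% of all genes higher. The part of these bone cells in the values of this pair was not tested. The receptor for RANKL, Tnfrsf11a, which the symbol rule leaves out, differed by -0.18 ± 0.25.

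None of the 8 lymphocyte costimulation genes was called (limma; 0 also at an unadjusted p under 0.05), with differences between -0.51 and 0.26. These are ligand and receptor pairs that antigen-presenting cells and T cells use to sustain a response: Tnfsf4 and Tnfrsf4 (OX40), Tnfsf8 and Tnfrsf8, Tnfsf9 and Tnfrsf9, Tnfsf18 and Tnfrsf18 (GITR). Tnfrsf18, abundant on regulatory T cells, read -0.30, 0 and 0.50 on the controls and -0.34, -0.73 and -0.26 on the cKO arrays. Its difference was -0.51 ± 0.25 (adjusted p 0.437), and its genomic neighbour Tnfrsf4 differed by 0.11 ± 0.22. Tnfrsf9 differed by 0.26 ± 0.28, with the highest of its 6 values, 0.94, on cKO replicate 3. Tnfrsf8, the direct neighbour of Tnfrsf1b, differed by -0.05 ± 0.22. Of 11 T lymphocyte markers on the same arrays limma called 2, Cd3d and Cd3g, which rose by 1.65 and 4.0. Cd3e differed by 0.32 and was not called. Of the 11, 8 had a higher mean in the cKO, with Cd4 at -0.17, Cd5 at -0.35 and Cd28 at -0.15. The list median was between -0.04 and 0.33 on the controls and 0.20 to 0.53 on the cKO arrays. The part of T lymphocytes in the values of the costimulation genes was not tested.

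For 26 of the 31 members that were not called, the 95% interval of the difference, taken gene by gene, lay within 2-fold either way. The widest of the 31 intervals reached 0.91 to either side of its estimate (Tnfsf10) and the narrowest 0.44 (Tnfsf14), on the log2 scale.

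Superfamily genes outside the symbol rule, listed with the adaptor gene Edaradd, were read beside the members. Of 14 measured, 1 was called, against 1.94% of all genes. The called gene, Tnfrsf19, a receptor of skin and hair follicle with no well-established ligand, fell by 1.30 ± 0.21 (limma adjusted p 0.00486). Edar, the ectodysplasin receptor needed for hair and other skin appendages, differed by -0.70 ± 0.23, with all 3 cKO arrays (-0.67, -1.07 and -0.67) below all controls (0.09, -0.40 and 0) and an adjusted p of 0.187. Rell1, a relative of the receptor Relt, differed by -0.76 ± 0.22 (adjusted p 0.124, and 0.0408 with array weights). Ltbr, the lymphotoxin beta receptor, differed by 0.40 ± 0.22. Eda, the ligand of Edar, chosen after its values were seen, differed by -0.36 ± 0.22.

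Genes that carry the signal inside the cell showed 2 calls among 57 measured (3.51%, against 1.94% of all genes), both of them NF-kB regulators of the I-kappa-B family that act in the nucleus. Nfkbiz read -0.23, 0 and 0.17 on the controls and 2.01, 1.78 and 2.29 on the cKO arrays, and rose by 2.05 ± 0.22 (adjusted p 0.000265). Bcl3 read 0, 0.05 and -0.65 on the controls and 1.76, 1.17 and 2.42 on the cKO arrays, and rose by 1.98 ± 0.31 (adjusted p 0.00393). In both, the cKO arrays lay far above the controls, and both were called with each of the 6 arrays left out. Rel, an NF-kB subunit, and Birc3, a ubiquitin ligase of the TNF receptor complex, were the next by p, at 0.80 ± 0.22 and 0.79 ± 0.23 (adjusted p 0.105 and 0.121). With array weights Rel (adjusted p 0.0272) and the adaptor Traf1 (0.89, adjusted p 0.0242) were called as well. Limma without weights called none of the caspases, RIP kinases, TRAF adaptors and sheddases of the list. An unadjusted p under 0.05 was found for 10 of the 57 genes, against 12.5% of all genes. The median of the 57 was 0.19.

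Genes that NF-kB is known to induce, in a list that includes targets of many other stimuli, held 8 calls among 33 measured, all higher (24.2%, against 1.24% of all genes called higher). Their median difference was 0.29, and 10 of the 33 had a lower mean in the cKO. Sele (E-selectin), the endothelial adhesion molecule for leukocytes, read 0.44, -0.0061 and 0 on the controls and 1.68, 2.02 and 2.05 on the cKO arrays, and rose by 1.77 ± 0.22 (limma adjusted p 0.000846). Cxcl5, a neutrophil chemokine, rose by 2.57 ± 0.24, Il1b, an inflammatory cytokine, by 2.31 ± 0.45, and Tnfaip2, a gene first found as TNF-induced, by 1.24 ± 0.23. The chemokines Ccl2 and Ccl20 rose by 1.19 ± 0.24 and 1.11 ± 0.25, and Lcn2 and Mmp9 by 4.09 and 3.01. Sele, Cxcl5 and Lcn2 were called with each array left out, the other 5 were not: the count was 4 without control replicate 1 or cKO replicate 3, and 6 to 11 otherwise. The list was drawn up with results for Lcn2, Mmp9 and other inflammatory genes of these arrays known, so its count is a description. The share of TNF receptors in these changes was not tested.

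**Figure D4:**
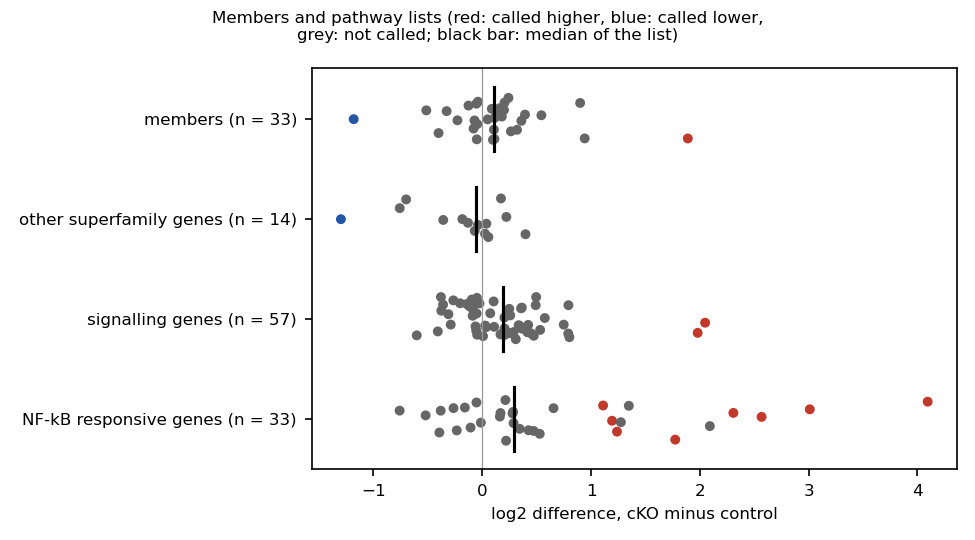
Log2 difference (cKO minus control) of each gene in the 33 members and 3 pathway lists; red and blue points were called higher and lower by limma, grey were not called, and black bars are list medians. The medians are 0.11, -0.05, 0.19 and 0.29 from top to bottom, and the points furthest right are NF-kB responsive genes.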

How the data were processed

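Total RNA of whole digit tips was hybridised to 6 Affymetrix MoGene 1.0 ST arrays. Per the deposited methods sheet, the authors quantile-normalised the signals with PLIER16 and set the log2 values to the median of the controls; annotation was na31 on build mm9, per the file headers. The kit in the labels' protocols is of the 3′ IVT type, and whether it was used for these whole-transcript arrays is not settled. The authors' deposited lists also hold a signed fold score and p-values (an unpaired t-test per the file headers, an ANOVA per the methods sheet). They were made after removing the bottom 20th percentile and a 1.5-fold filter. The percentile step alone, rebuilt here on the control-centred values, passed 28 of the 33 members. On such values it screens by relative difference and not by signal level.

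The series value table was analysed (at most 5e-05 from the workbook). Clusters with 1 symbol (22984 of 28853) were averaged per gene, with symbols updated through Entrez identifiers (21924 matched) in RefSeq for GRCm38.p6. All 20806 genes were fitted with limma 3.58.1 in R 4.3.3 (lmFit, eBayes, Benjamini-Hochberg, called at 0.05); errors after ± are limma SEs unless marked SD. Signals are log2 only, so the number of arrays limits precision. Members and lists were chosen with earlier results of these data known; no list was tested as a set. The titles call samples biological replicates without naming animals, so p-values measure the spread between samples. Named members are the called ones, the 10 of largest difference and 14 symbols listed whatever their values; from other lists, the called genes, or up to 4 of smallest p. Tnfsf12 has no row of its own, and a second Tnfsf13b cluster shared with another gene was not used. Rell2, Map3k14, Map2k7, Bcl2a1a, Ccl19 and Ccl21a were not measured on a single-gene cluster. A further marker gene is not reported here. Marker lists whose limma calls are not given above had these counts: natural killer and cytotoxic 1 of 7 higher, regulatory T 0 of 3, Langerhans and dendritic 0 of 9. Neutrophil markers gave 2 of 11 higher (S100a8 and S100a9, the only 2 at an unadjusted p under 0.05). The rest gave mast cell 0 of 7, keratinocyte 0 of 7, nail and hair matrix 0 of 7, sebaceous gland 5 of 6 lower, fibroblast 2 of 6 higher. The lists with 0 calls had 0, 3, 0, 0 and 2 genes at an unadjusted p under 0.05, against 12.5% of all genes.

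Alternatives were array centring, workbook values, a replicate block, array weights, robust variances, a plain t-test over all genes, single clusters, the percentile filter, a fold minimum and each array left out. The array weights were lowest for control replicate 1 (0.384) and cKO replicate 3 (0.568). They were highest for cKO replicate 1 (2.221), the array apart in sex-linked genes, and control replicate 2 (2.026).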

Additional observations from a re-analysis of the deposited data

How the results depend on the processing

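Neither the Tnfrsf1b nor the Tnfrsf13c call was stable. Both differences kept their sign, but this was no test. Their groups did not overlap, and most alternatives change only the error or the set of genes. Members called numbered 2 in the full comparison, 1 with robust variances (Tnfrsf13c), 0 with the plain t-test (3 at an unadjusted p under 0.05; adjusted p 0.408 for Tnfrsf1b and 0.273 for Tnfrsf13c), and 0 to 2 when 1 array was left out. Without control replicate 2 the called members were Tnfrsf1b and Tnfsf10. Over all genes 403 were called, 829 with array weights, 13 with the plain t-test and 193 to 404 with 1 array left out. Of the 20806 genes, 2424 had an unadjusted p under 0.05 in the plain t-test. Other superfamily genes gave 2 calls with array weights and 0 with the t-test (3 unadjusted), signalling genes 4 (Nfkbiz, Bcl3, Rel and Traf1) and 0 (10 unadjusted), and NF-kB responsive genes 0 with the t-test (10 unadjusted) and 4 to 11 with 1 array left out. The cause of these shifts was not tested. Some differences changed sign when 1 array was left out. Tnfrsf12a, at -0.33 with all arrays, ranged from -0.617 to 0.0490 and was positive only without cKO replicate 3. The smaller differences ranged from -0.0173 to 0.448 for Tnfsf11, -0.14 to 0.41 for Tnfsf13b and -0.0336 to 0.231 for Fasl. The ranges were -0.294 to 0.0795 for Lta, -0.26 to 0.43 for Tnfrsf10b, -0.10 to 0.33 for Tnfrsf11b and -0.12 to 0.44 for Fas. The ligand to decoy log2 ratio differed by -0.09 to 0.21 with 1 array left out. With the replicate block 576 genes and the same 2 members were called (adjusted p 0.00286 for Tnfrsf1b and 0.00676 for Tnfrsf13c), but same-numbered arrays did not deviate together (correlations of 0.042, 0.138 and -0.086 over genes), so the numbers were not taken as pairs. No detection call exists in the deposited values, so dim genes could not be set apart.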
